A study of Mus musculus with 12 samples.

Results

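The cytosolic ribosomal protein genes encode the protein parts of the ribosome that translates nuclear messages. Their members were the rows of the RNA table whose mouse symbol is Rpl or Rps followed by a number, together with Rplp0, Rplp1, Rplp2 and Rpsa, whose normalized counts averaged 10 or more over the 6 libraries. Of 86 rows with such a symbol 84 met the minimum, out of 25700 genes in the table; Rps12l1 (mean 5.85) and Rpl39l (mean 4.83) did not. The 84 hold 35 small subunit and 49 large subunit genes, 80 annotated as protein coding and 4 as pseudogenes, and they lie on 19 chromosomes. Mouse Th2 cells, the helper T cells of allergic inflammation, were compared between 2 genotypes, cKO (conditional knockout) and WT, with 3 RNA-seq and 3 ATAC-seq libraries per genotype. NRF2, a regulator of antioxidant genes whose gene is Nfe2l2, is named in the series title, but the labels name no deleted gene, no Cre driver, no strain, no treatment and no age, and they do not say that libraries came from separate animals, so p-values here measure only the spread between these libraries, which may be technical. The question behind the comparison is how the transcripts and open chromatin of these cells differ between the genotypes.

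A ribosome holds 1 copy of nearly every ribosomal protein, and cells make these proteins in step with growth. Their genes are short and strongly transcribed, and their messages begin with a tract of C and T, the terminal oligopyrimidine (TOP) tract, through which the kinase mTOR and the RNA-binding protein LARP1 control translation. T cells raise ribosome production when they are activated and start to divide.

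Totals ran from 6431081 to 7372007 normalized counts per RNA library. Nfe2l2 had 452.83, 326.42 and 391.53 normalized counts in the cKO-labelled libraries and 169.92, 155.3 and 147.37 in WT, so it was higher, not lower, and the label is used here without saying what was deleted. T cell markers made up 0.21% of the total in the cKO-labelled group and 0.186% in WT, with all 7 tested. Gata3, the defining factor of Th2 cells, was present in every library at 589.85 to 803.25 normalized counts, whereas the Th2 cytokine genes Il4 and Il5 were at 0 to 12.398. Th2 markers made up 0.0253% of the total in the cKO-labelled group and 0.0286% in WT, and B cell markers 0.004% and 0.00461%. The Y-linked genes Ddx3y and Eif2s3y were at 0 in all 3 cKO-labelled libraries and between 116.79 and 140.49 in all 3 WT libraries, while Xist, the X inactivation transcript, was at 4331.3 to 7069.1 in the cKO-labelled libraries and 3173.6 to 4046.9 in WT. The labels give no sex, and these values do not settle the sex of the animals in each group. The Y-linked difference runs with genotype in every library, so its bearing on the results cannot be told apart from that of genotype and was not tested.

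Most ribosomal protein transcripts had modestly lower values in cKO-labelled libraries than in WT. Of the 84 genes 75 had a negative log2 change, cKO over WT, and the median was -0.33, against 45.0% negative and a median of 0.06 over all 18074 genes tested. The lowest log2 change was -0.84. In 53 genes (63.1%) every cKO-labelled library was below every WT library, and in 0 genes was every one above; over all genes tested these shares were 9.76% and 7.4%. The fold difference in those 53 was between 1.07 and 1.8. The values are as the authors normalized them, and library totals are unequal, so they are not shares of a total; in bulk RNA, fewer cells of a type and less RNA per cell cannot be told apart.

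In limma, fitted on log2 of the normalized count plus 1 over all genes with Benjamini-Hochberg adjustment, 1 of the 84 fell past an adjusted p of 0.05, Rpl41, and 0 rose; 0.172% of all genes tested fell and 0.0332% rose. With no adjustment 47 had p under 0.05, all 47 lower, against 6.05% of all genes. Of the 84 genes, 81 have an adjusted p in the authors' deposited table, of which 21 were under 0.05 as lower and 0 as higher; 3.9% of the 9263 genes with an adjusted p there were lower and 1.78% higher. In each of those 21 the groups did not overlap. The 53 genes without overlap became 7 lower and 4 higher after quantile normalization, where 10.2% of all genes were lower without overlap, and 20 lower and 1 higher when each library was rescaled to the same total without these genes, where 8.99% of all genes were lower without overlap. The median log2 change was -0.15 after quantile normalization, against 0.02 over all genes, and between -0.39 and -0.28 with any 1 library left out.

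**Figure D1:**
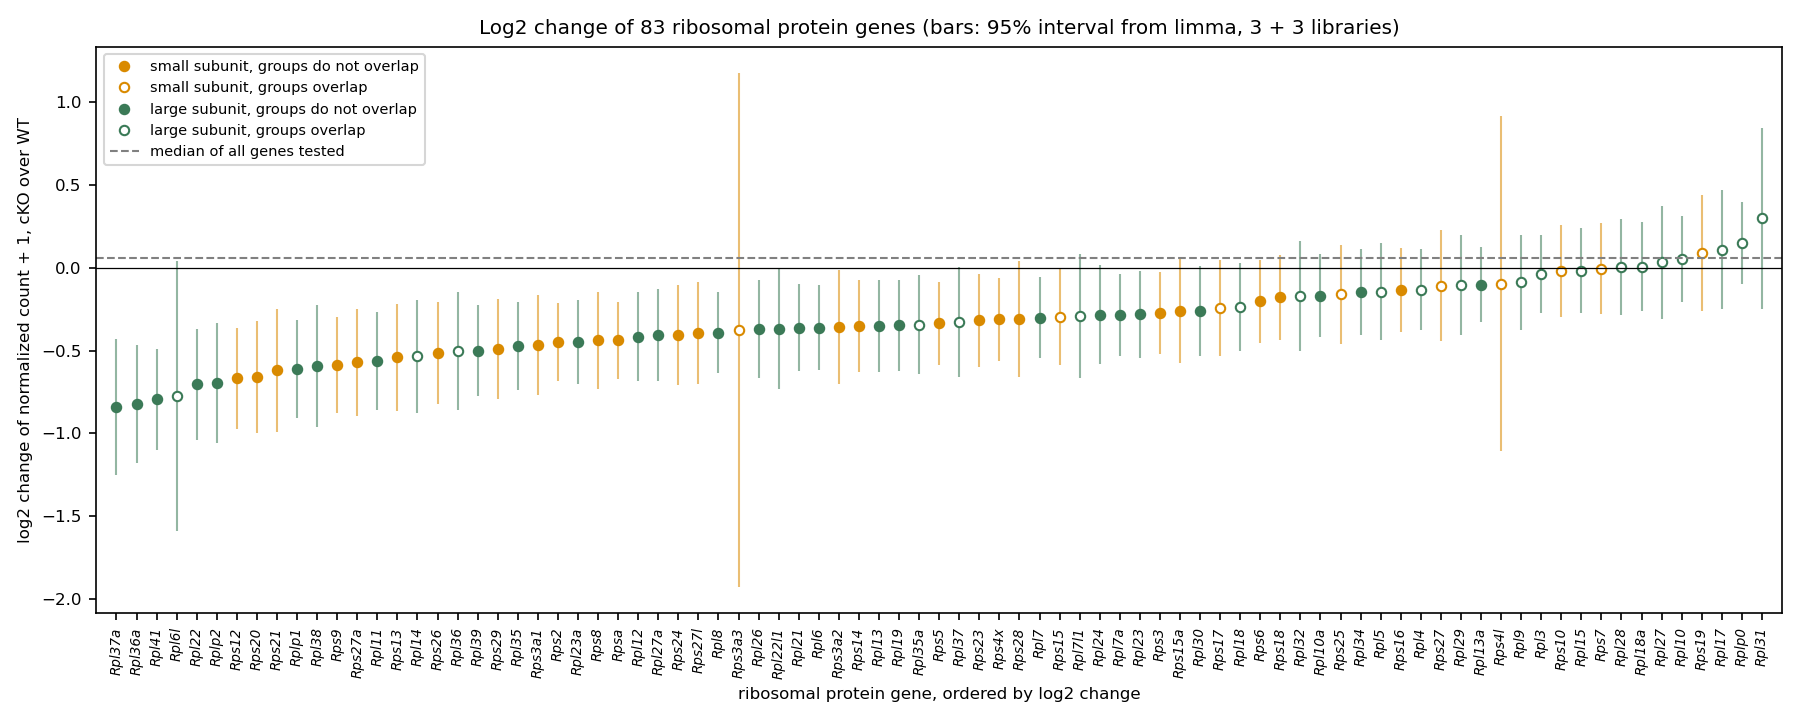
Log2 change of the normalized count plus 1, cKO over WT, for 83 of the 84 ribosomal protein genes, ordered by change; bars are 95% intervals from limma and filled points are genes whose 2 groups of 3 libraries do not overlap. The points run from -0.84 (Rpl37a) to 0.30 (Rpl31) and 75 lie below 0, while the dashed line marks the median of all genes tested at 0.06.

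Rpl41, which encodes a very short peptide at the interface of the ribosomal subunits, had 16934, 19127 and 16746 normalized counts in the cKO-labelled libraries and 25310, 36888 and 30383 in WT. Every cKO-labelled library was below every WT library. The gene fell 1.75-fold (log2 change -0.80, SE 0.14, limma adjusted p = 0.0438; authors' deposited adjusted p = 0.000447). The limma adjusted p was 0.064 after rescaling without the ribosomal protein genes, 0.461 without the mean-variance trend, 0.255 without cKO replicate 1, 0.209 without cKO replicate 3, 0.0989 without WT replicate 2 and 0.285 without WT replicate 3. The log2 change lay between -0.80 and -0.66 in these fits. Rpl41 lies on chromosome 10, 128548110 to 128549168 (GRCm38), and the 250 bases before its RefSeq start are shown because this is the 1 member that passed and because its start lies in one of the tallest ATAC regions described here (chr10:128549169-128549418, GRCm38.p6, minus strand; capitals mark, from 5′ to 3′, an ETS core CCGGAAG whose first base is at -56 and a GC box GGGCGG read on the other strand whose first base is at -31):
Rpl41: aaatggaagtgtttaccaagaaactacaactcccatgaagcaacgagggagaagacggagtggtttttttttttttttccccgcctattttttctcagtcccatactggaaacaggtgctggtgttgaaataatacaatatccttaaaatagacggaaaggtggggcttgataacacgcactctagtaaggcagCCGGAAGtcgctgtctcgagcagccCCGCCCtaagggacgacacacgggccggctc

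RefSeq promoter sequences (GRCm38.p6, 250 bases before to 50 after the start) matched 60 of the 84 genes, with 71 starts. A run of at least 8 C or T that reached within 5 bases of any listed start was found in 24 of the 60 (40.0%), against 11.0% of 27025 genes. Where a gene has several listed starts, the start with the longest run was taken. The starts so taken for Rpl38 and Rps9 lie inside the annotated genes, which begin at 114667818 and 3703954. The windows of 15 bases on each side of the start taken are shown for the 4 genes with such a run and the lowest log2 changes, and then for the 4 with the highest, so that the tract can be compared between them (capitals mark the run of C and T within the window):
Rplp2, chr7:141447636-141447665, plus strand: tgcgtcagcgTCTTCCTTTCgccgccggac
Rpl38, chr11:114668565-114668594, plus strand: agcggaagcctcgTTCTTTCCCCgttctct
Rps9, chr7:3704026-3704055, plus strand: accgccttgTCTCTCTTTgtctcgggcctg
Rpl14, chr9:120571502-120571531, plus strand: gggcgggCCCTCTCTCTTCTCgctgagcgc
Rpl13a, chr7:45128731-45128760, minus strand: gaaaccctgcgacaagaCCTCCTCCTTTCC
Rps10, chr17:27635230-27635259, minus strand: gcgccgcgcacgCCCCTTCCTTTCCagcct
Rpl15, chr14:18270972-18271001, minus strand: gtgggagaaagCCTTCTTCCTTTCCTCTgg
Rpl28, chr7:4792950-4792979, plus strand: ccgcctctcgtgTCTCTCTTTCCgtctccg
The first 4 had log2 changes of -0.69 to -0.54 and the last 4 of -0.10 to 0.01; all 8 were picked for holding such a run. The run was present in 5 of the 16 matched genes that were lower in the authors' deposited table and in 19 of the other 44.

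Other motifs were searched on both strands of the same 300 bases where genes of this family are known to carry them. The ETS core CCGGAAG, which factors such as GABPA bind, was present in 41.7% of the 60 genes and in 9.93% of all genes. The GC box GGGCGG was present in 63.3% of the 60 and 38.2% of all, and AAGATGGC, a YY1 motif, in 10.0% and 3.19%. The E box CACGTG, bound by MYC with MAX, was in 10.0% and 8.09%, and TATAAA in 11.7% and 15.7%. TGACNNNGC, the core of the antioxidant response element that NRF2 binds with small MAF proteins, was present in 12 of the 60 genes (20.0%) and in 14.0% of all genes. It was found in 0 of the 16 matched genes that were lower in the authors' deposited table and in 12 of the other 44. By the same split the E box was in 0 and 6, the ETS core in 10 and 15 and the GC box in 9 and 29. The YY1 motif was in 1 and 5 and TATAAA in 4 and 3. None of these splits was tested. These are counts of letters in a fixed window and say nothing of binding.

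Rpl37a and Rpl36a had the lowest log2 changes, ahead of Rpl41. Rpl37a, whose product is a zinc-binding protein, had 5904, 8065 and 5619 normalized counts in the cKO-labelled libraries and 8571, 14060 and 12715 in WT. Rpl36a, an X-linked gene of another zinc-binding protein, had 2750, 3710 and 2813 in the cKO-labelled libraries and 4454, 6201 and 5764 in WT. Neither gene's groups overlapped, and in both cKO replicate 2 was the highest of its group and WT replicate 1 the lowest of its own. The log2 change of Rpl37a was -0.84 (SE 0.19, limma adjusted p = 0.0907; authors' deposited adjusted p = 0.00379) and that of Rpl36a was -0.82 (SE 0.17, limma adjusted p = 0.065; authors' deposited adjusted p = 0.0012). Without cKO replicate 2 both passed in limma (adjusted p = 0.0453 for Rpl37a and 0.0282 for Rpl36a), and so they did without WT replicate 1 (0.019 and 0.0245). Of the summed counts of Rpl36a and its named pseudogene rows 27.6% lay in the pseudogene rows, and the log2 change of the sum was -0.74 (limma adjusted p = 0.0676). Rpl6l, annotated as a pseudogene, had only 51.5, 42.4 and 104 normalized counts in the cKO-labelled libraries and 128, 86.1 and 106 in WT, and its groups overlapped.

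The stalk of the large subunit, which recruits the GTPase elongation factors, is built from Rplp0, Rplp1 and Rplp2. Rplp1 and Rplp2 had lower values and Rplp0 did not, a difference between genes that was not tested. Rplp1 had 17173, 19082 and 17376 normalized counts in the cKO-labelled libraries and 22154, 31398 and 29348 in WT. Rplp2 had 5848, 7256 and 5618 in the cKO-labelled libraries and 7729, 11661 and 11207 in WT. All cKO-labelled values of both genes lay under all WT values, by 1.55-fold (log2 change -0.61, SE 0.14, limma adjusted p = 0.0896) and 1.63-fold (log2 change -0.69, SE 0.17, limma adjusted p = 0.112). Both were lower in the authors' deposited table (adjusted p = 0.00873 for Rplp1 and 0.00959 for Rplp2). Rplp0, whose product anchors the other two, had 34535, 30224 and 35299 in the cKO-labelled libraries and 33082, 28348 and 28721 in WT. These groups overlapped, and the log2 change was 0.15 (95% interval -0.10 to 0.40, limma adjusted p = 0.643).

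Rpl5 and Rpl11 encode the proteins that carry the 5S ribosomal RNA and, outside the ribosome, bind MDM2, the ubiquitin ligase of p53. Rpl11 had 5880, 7963 and 6395 normalized counts in the cKO-labelled libraries and 9775, 9342 and 10614 in WT. The groups did not overlap (log2 change -0.56, SE 0.14, limma adjusted p = 0.112; authors' deposited adjusted p = 0.0208). Rpl5 had 4382, 4618 and 4727 in the cKO-labelled libraries and 5704, 4331 and 5222 in WT. WT replicate 2 was below all 3 cKO-labelled libraries, and the log2 change was -0.14 (SE 0.14, limma adjusted p = 0.718), and 0.01 after quantile normalization. Mdm2 itself had 3110, 2868 and 3483 in the cKO-labelled libraries and 2463, 1779 and 2115 in WT. It was higher without overlap (log2 change 0.58, SE 0.16, limma adjusted p = 0.14), and was called higher in the authors' deposited table (adjusted p = 0.0264).

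**Figure D2:**
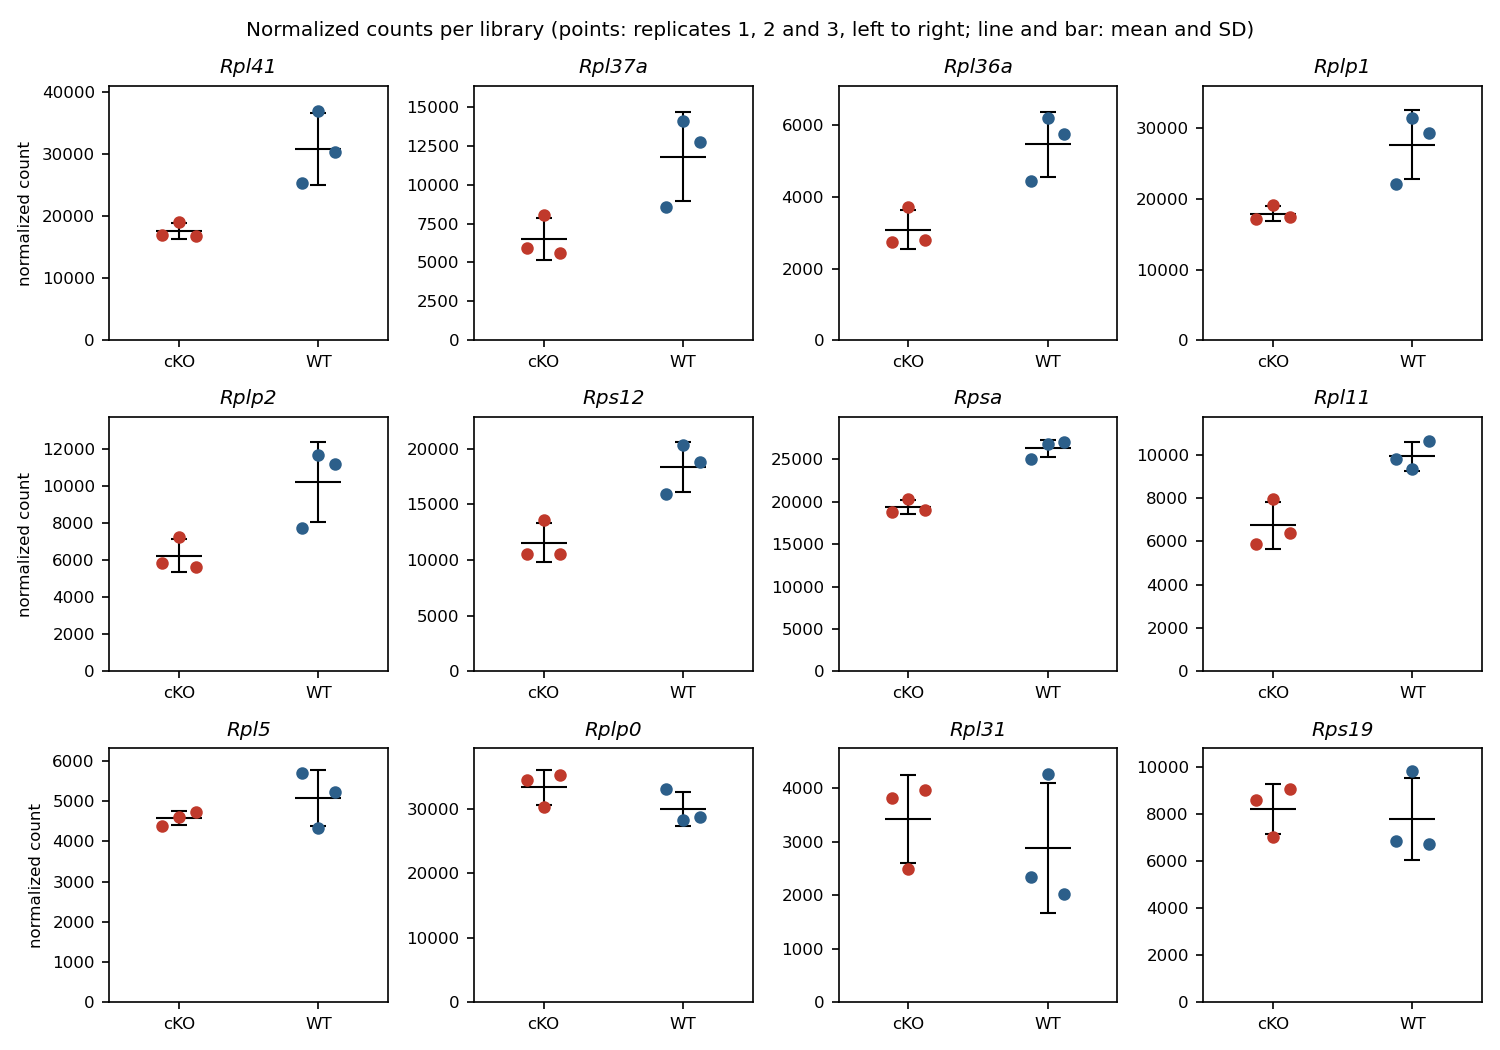
Normalized counts of 12 ribosomal protein genes in each of 3 cKO-labelled and 3 WT libraries, on linear axes from 0, with the mean and SD of each group. For Rpl41, Rpl37a, Rpl36a, Rplp1, Rplp2, Rps12, Rpsa and Rpl11 all red points lie below all blue ones; for Rpl5, Rplp0, Rpl31 and Rps19 the groups overlap.

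Genes of both subunits were mostly lower, and the difference between subunits was not tested. In the small subunit the log2 change was negative in 33 of 35, with a median of -0.34 and 25 without overlap, against 42 of 49, -0.33 and 28 in the large subunit. Over all genes tested 9.76% were lower without overlap. None of the 35 passed in limma. Of the 35, 21 had an unadjusted limma p under 0.05, all lower (6.05% of all genes), and 10 were lower in the authors' deposited table (3.9% of all genes with an adjusted p there). Rps12, a gene known in flies for its part in cell competition, had 10504, 13614 and 10563 normalized counts in the cKO-labelled libraries and 15896, 20327 and 18807 in WT, with no overlap (log2 change -0.67, SE 0.14, limma adjusted p = 0.0758; authors' deposited adjusted p = 0.00526). Rps2, whose product lines the mRNA entry channel, had 18967, 20932 and 18777 in the cKO-labelled libraries and 26945, 25567 and 27458 in WT (log2 change -0.45, SE 0.11, limma adjusted p = 0.112). Rpsa, also known as the laminin receptor, had 18819, 20333 and 19034 in the cKO-labelled libraries and 25069, 26758 and 26998 in WT (log2 change -0.44, SE 0.11, limma adjusted p = 0.114). The groups did not overlap in either gene, and both were lower in the authors' deposited table (adjusted p = 0.0281 for Rps2 and 0.0288 for Rpsa). Rps27a, made as a fusion with ubiquitin, had 6120, 7934 and 6211 in the cKO-labelled libraries and 8389, 11104 and 10646 in WT (log2 change -0.57, SE 0.15, limma adjusted p = 0.129; authors' deposited adjusted p = 0.0269). Rps6, whose product the S6 kinases phosphorylate, differed little: it had 7069, 7846 and 7836 in the cKO-labelled libraries and 8596, 8538 and 9035 in WT (log2 change -0.20, 95% interval -0.46 to 0.05). Its groups still did not overlap.

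Several ribosomal proteins have a second gene, and some partners differed in size of change. Rpl22, whose product is needed for the development of alpha-beta T cells in mice, had 3483, 4313 and 3416 normalized counts in the cKO-labelled libraries and 5110, 7250 and 5993 in WT (log2 change -0.70, SE 0.16, limma adjusted p = 0.0882; authors' deposited adjusted p = 0.00502). Its paralog Rpl22l1 had 809, 1081 and 808 in the cKO-labelled libraries and 1107, 1241 and 1107 in WT (log2 change -0.37, SE 0.17, limma adjusted p = 0.411). Neither pair of groups overlapped, and the difference between the partners was not tested. Rps27 had 3659, 3645 and 3908 in the cKO-labelled libraries and 3347, 5024 and 3882 in WT (log2 change -0.11, SE 0.16), and 0.04 after quantile normalization. Rps27l, a p53 target, had 2305, 2181 and 2208 in the cKO-labelled libraries and 2695, 3422 and 2727 in WT, without overlap (log2 change -0.39, SE 0.14, limma adjusted p = 0.289). Rpl7 was at -0.30 and Rpl7l1 at -0.29 on the log2 scale, with overlapping groups in Rpl7l1. Rpl39, an X-linked gene whose product lines the exit tunnel, had 4548, 4848 and 4566 in the cKO-labelled libraries and 5906, 7265 and 6640 in WT (log2 change -0.50, SE 0.13, limma adjusted p = 0.124; authors' deposited adjusted p = 0.021). The X-linked Rps4x was at -0.31 (SE 0.12, limma adjusted p = 0.304) without overlap, and the pseudogene Rps4l, at 26.5 to 74 normalized counts per library, was at -0.10 (SE 0.47). Rpl3, whose product reaches the peptidyl transferase centre, was at -0.04 (SE 0.11) and at 0.14 after quantile normalization. Rpl3l and Rpl10l were not analysed here.

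A few genes did not share the lower values. Rpl31, which sits at the rim of the exit tunnel, had 3822, 2488 and 3979 normalized counts in the cKO-labelled libraries and 2344, 4273 and 2025 in WT (log2 change 0.30, 95% interval -0.25 to 0.85). Rps19, mutated in Diamond-Blackfan anaemia in humans, had 8581, 7003 and 9043 in the cKO-labelled libraries and 6847, 9813 and 6716 in WT, and Rpl17 had 5234, 4254 and 5626 in the cKO-labelled libraries and 3949, 5845 and 4324 in WT. Their log2 changes were 0.09 (SE 0.16) and 0.11 (SE 0.17), and they turned to -0.01 without WT replicate 3 for Rps19 and without WT replicate 1 for Rpl17. In Rpl31, Rps19 and Rpl17 the same 3 libraries were the highest, cKO replicates 1 and 3 and WT replicate 2. Rpl10, an X-linked gene whose product joins the large subunit late, was at 0.05 (SE 0.12). Rpl13a, which in human myeloid cells also silences inflammatory messages, had 27624, 28386 and 28382 in the cKO-labelled libraries and 28949, 31837 and 29770 in WT, so a log2 change of -0.10 (SE 0.11) went with groups that just did not overlap.

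The 84 genes together made up 9.09%, 10.8% and 8.88% of all normalized counts in the cKO-labelled libraries and 10.4%, 12.9% and 11.9% in WT. The mean share was 9.57% ± 1.03 in the cKO-labelled libraries and 11.7% ± 1.22 in WT (SD, n = 3 each), a difference of -2.16 percentage points. cKO replicate 2 was above WT replicate 1, so these shares overlapped. The mean share of mitochondrially encoded transcripts was higher in the cKO-labelled libraries, at 3.78% against 2.66% in WT. Their shares were 3.96%, 2.91% and 4.47% in the cKO-labelled libraries and 2.48%, 3.35% and 2.15% in WT. WT replicate 2 was above cKO replicate 2, so these overlapped too. Within WT, replicate 2 had the highest share of both sets. With those transcripts taken out of the totals, the difference in ribosomal protein share was -2.11 percentage points.

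Libraries of 1 group differed from each other in a common way. The median log2 difference of the 84 genes from their WT mean was -0.39, -0.25 and -0.37 in cKO replicates 1, 2 and 3, against -0.12, 0.12 and 0.01 in WT replicates 1, 2 and 3. WT replicate 2 was the highest of all 6 libraries for 58 of the 84 genes, cKO replicate 1 the lowest for 36 and cKO replicate 3 the lowest for 25. Within the WT group replicate 1 was the lowest library for 54 genes, and within the cKO-labelled group replicate 2 was the highest for 53. The first principal component over the 84 genes held 70.0% of their variance and placed cKO replicates 1, 2 and 3 at -0.47, -0.13 and -0.48 and WT replicates 1, 2 and 3 at 0.04, 0.58 and 0.45. With cKO replicate 2 left out 10 of the 84 genes passed in limma as lower, beside 95 of all 17976 genes tested. With WT replicate 1 left out 9 did, beside 73 of 18184. With any other library left out 0 of the 84 passed, and 1 to 5 of all genes tested did.

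**Figure D3:**
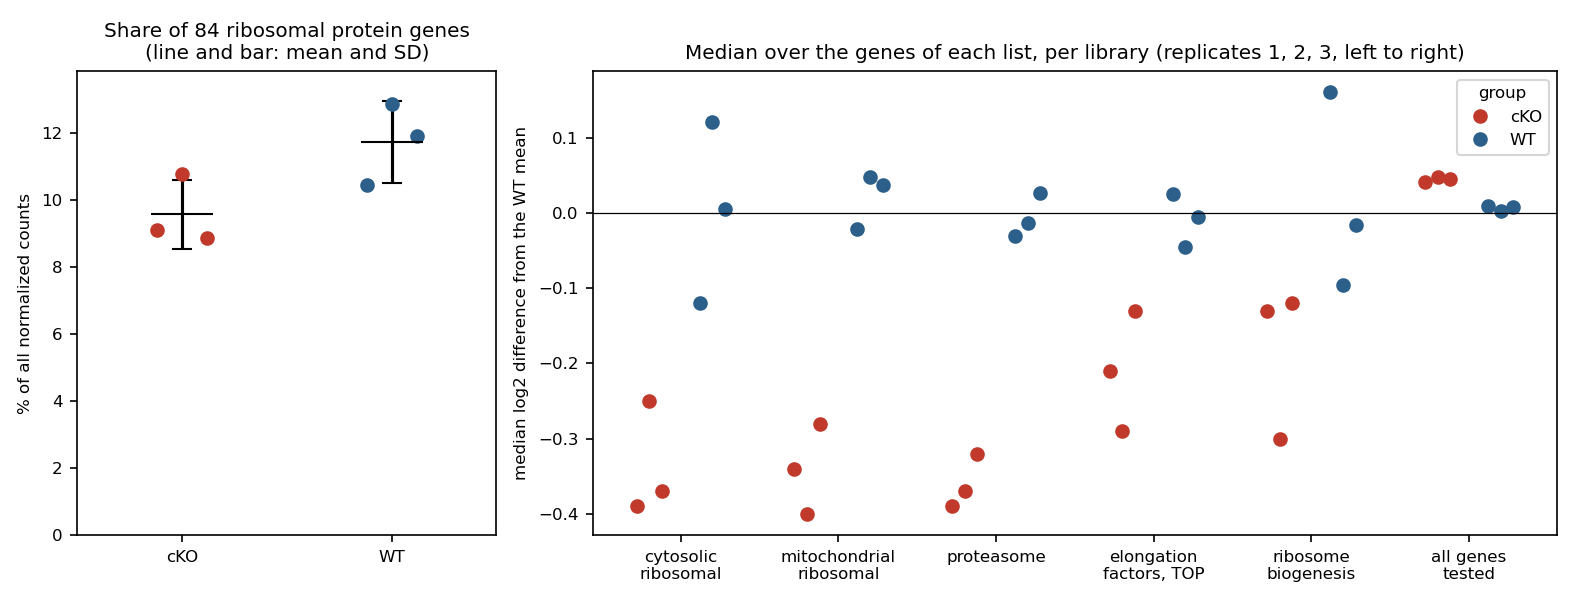
Left, the share of all normalized counts held by the 84 ribosomal protein genes in each library, in percent, with the mean and SD of each group; cKO replicate 2 (10.8%) lies above WT replicate 1 (10.4%). Right, the median log2 difference from the WT mean over each gene list and over all genes tested, per library; all 3 cKO-labelled libraries lie below all 3 WT libraries in the 5 lists and slightly above them over all genes.

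The 84 genes share features that their names do not fix. Their median genomic span was 3.15 kb, against 20.1 kb over all tested genes with a span, and 71 of the 84 lay in the shortest 20% of spans. Other genes of the shortest 20% had a median log2 change of -0.03, and those of the longest 20% of 0.15. Genes in the top 10% by mean, ribosomal protein genes aside, had a median of -0.02, and 23.7% of them were lower without overlap. Of those genes 166 were lower and 50 higher in the authors' deposited table. Among the 84 genes themselves, Spearman's rho of the log2 change with span was 0.18 and with the mean level -0.13; these are descriptions across genes that share libraries. Reads of processed pseudogenes could be split from their parents by the counting: 56 of the 84 genes have named pseudogene rows, 197 rows in all, and in 18 genes over 10% of the summed counts lay there. Rps23 (42.7%), Rpl31 (30.6%) and Rps6 (29.8%) had the highest shares, and their single values are uncertain to that degree. After summing, the median log2 change was -0.34 and 1 gene passed.

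Ribosomal proteins under other names were lower as well. The log2 change was negative in all 5, with a median of -0.34, and 3 did not overlap between groups: the scaffold protein gene Rack1 (-0.34), Rpl36al (-0.43) and Fau (-0.35), which encodes a fusion of a ubiquitin-like protein with a small subunit protein. Rps27rt (-0.31) overlapped. None of the 5 passed in limma (adjusted p of 0.242 to 0.664 in these 4 genes) or in the authors' deposited table. None was higher without overlap. Over all genes tested 45.0% had a negative log2 change and 9.76% were lower without overlap.

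Elongation factors and other genes with TOP messages had a median log2 change of -0.21. Of 18, 12 were negative, 10 were lower without overlap (9.76% of all genes tested) and 0 passed in limma. Npm1, the nucleolar histone chaperone nucleophosmin, had 12675, 13001 and 13039 normalized counts in the cKO-labelled libraries and 21831, 17264 and 19338 in WT (log2 change -0.59, SE 0.12, limma adjusted p = 0.0681). Eef1d (-0.62), a subunit of the exchange factor of elongation factor 1, the histone chaperone gene Nap1l1 (-0.61) and Eef1b2 (-0.44), another subunit of that factor, were also lower without overlap. The first 3 of these 4 were lower in the authors' deposited table (adjusted p of 0.00244 to 0.00482).

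Of 40 ribosome biogenesis genes 2 fell in limma (0.172% of all genes tested) and 0 rose. In this list 30 were negative, 16 were lower without overlap (9.76% of all genes tested) and the median was -0.18. Ncl, which encodes the nucleolar protein nucleolin, had 7856, 9613 and 8648 normalized counts in the cKO-labelled libraries and 14320, 14466 and 17833 in WT (log2 change -0.83, SE 0.13, limma adjusted p = 0.0421). Nhp2, of the box H/ACA particles that guide pseudouridylation, had 1431, 1421 and 1485 in the cKO-labelled libraries and 2490, 2640 and 2480 in WT (log2 change -0.81, SE 0.13, limma adjusted p = 0.0426). Neither call held with cKO replicate 1, cKO replicate 3, WT replicate 2 or WT replicate 3 left out (limma adjusted p of 0.0874 to 0.266 for Ncl and 0.0989 to 0.278 for Nhp2) or without the mean-variance trend (0.458 and 0.446), and Ncl missed after quantile normalization (0.0682). Mrto4, whose product holds the stalk's place during assembly, was at -0.63 (limma adjusted p = 0.112) and Nop56, of the box C/D particles that guide methylation, at -0.52 (limma adjusted p = 0.129), both without overlap.

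The 15 genes that control ribosomal protein synthesis, mTOR pathway members, LARP proteins and transcription factors, had a median log2 change of 0.28. None passed in limma, 12 were positive and 2 were higher without overlap (7.4% of all genes tested). The 4 with the smallest p were Tsc2 and Tsc1, the brakes on mTOR, the translation repressor gene Eif4ebp2 and Max. Tsc2 had 1575, 180 and 937 normalized counts in the cKO-labelled libraries and 205, 258 and 230 in WT, so cKO replicate 2 was below all WT libraries (log2 change 1.48, SE 0.56, limma adjusted p = 0.306). Tsc1 (0.59, limma adjusted p = 0.401) and Eif4ebp2 (0.47, limma adjusted p = 0.504) also overlapped, and Max (0.28, limma adjusted p = 0.558) did not. Among 12 genes of ribosome rescue and stress the median was 0.27 and 0 passed in limma. After Mdm2, the smallest p values there were those of the cell cycle inhibitor gene Cdkn1a (0.47, limma adjusted p = 0.215, higher without overlap), the collision sensor gene Edf1 (-0.29, limma adjusted p = 0.446, lower without overlap) and Trp53 (0.35, limma adjusted p = 0.5, overlapping).

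Lower values of about this size were also seen in other large complexes. Mitochondrial ribosomal protein genes had a median log2 change of -0.31, with 74 of 79 negative and 37 lower without overlap. Proteasome subunit genes had a median of -0.37, with 38 of 41 negative and 25 lower without overlap. Over all genes tested 9.76% were lower without overlap. None of either list passed in limma, and 16 of 79 and 12 of 37 with an adjusted p were lower in the authors' deposited table (3.9% of all genes with one). Mrpl33 (-1.04), Mrps14 (-0.81), Mrpl51 (-0.80) and Mrpl13 (-0.83) had the smallest p of the first list, with limma adjusted p of 0.0546 to 0.0876. Psmb10 (-1.09), an immunoproteasome subunit, Psmb7 (-0.71), Psma3 (-0.79) and Psmb4 (-0.60) had the smallest p of the second, also 0.0546 to 0.0876. After quantile normalization the medians of these 2 lists were -0.36 and -0.32, while that of the cytosolic ribosomal protein genes was -0.15, that of ribosomal proteins under other names -0.18 and that of the elongation factor and TOP list -0.09. Whether the cytosolic ribosomal protein genes differ from these lists was not tested.

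Open chromatin was measured at the same genes. ATAC-seq peaks of the 6 libraries, with 13149952 to 18327127 tags per library, gave 114463 regions after merging, and 33531 of these had a peak in every list. A region within 1 kb of the gene's start (60 genes) or, where no strand was at hand, of either end (24 genes) had a peak in all 6 lists for 79 of the 84 genes, and these 79 rest on 78 regions because 1 region is shared by a pair of genes. The 4 pseudogenes had no such region and Rpl17 had a peak in 1 list. Height here is the scaled tag count of a peak, not divided by its length, so a wide peak can count as tall. The median height of the members' regions was 124 tags per 10000000, against 33.2 over all regions in 6 lists, and 55 of the 78 were in the tallest 20%. Their median length was 2184 bp, against 1497 bp over all regions in 6 lists.

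Heights were compared with limma on log2 of height plus 1, over all 33531 regions with Benjamini-Hochberg adjustment, and the answer depended on the scaling. With each library's median subtracted 64 of the 78 regions were higher in the cKO-labelled libraries and 0 lower, with a median log2 change of 0.61; of all regions 28.0% were higher and 5.48% lower, with a median of 0.16. The tallest 10% of all regions had a median of 0.76 under this scaling, 0.46 as deposited, 0.05 after quantile normalization and 0.03 after cyclic loess. As deposited, 4 were higher (1.37% of all regions) and 1 lower (9.03%), with a median of 0.30 against -0.15 over all regions. After quantile normalization 8 were higher (3.67%) and 5 lower (4.33%), with a median of 0.16 against 0.02, and after cyclic loess 9 were higher (4.09%) and 6 lower (5.27%), with a median of 0.14 against 0.01. With summed tags per kb of peak in place of height, medians subtracted, 57 were higher (22.1%) and 0 lower (4.21%). Relative to the median of all regions, the members' median was therefore higher under all 4 scalings, by unequal amounts. Relative to the tallest 10% it was lower with medians subtracted and as deposited, and higher after quantile normalization and cyclic loess. With medians subtracted 3139 of the 3353 tallest regions were called higher. As deposited, 41 regions were higher without overlap (13.6% of all regions) and 0 lower (21.8%).

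**Figure D4:**
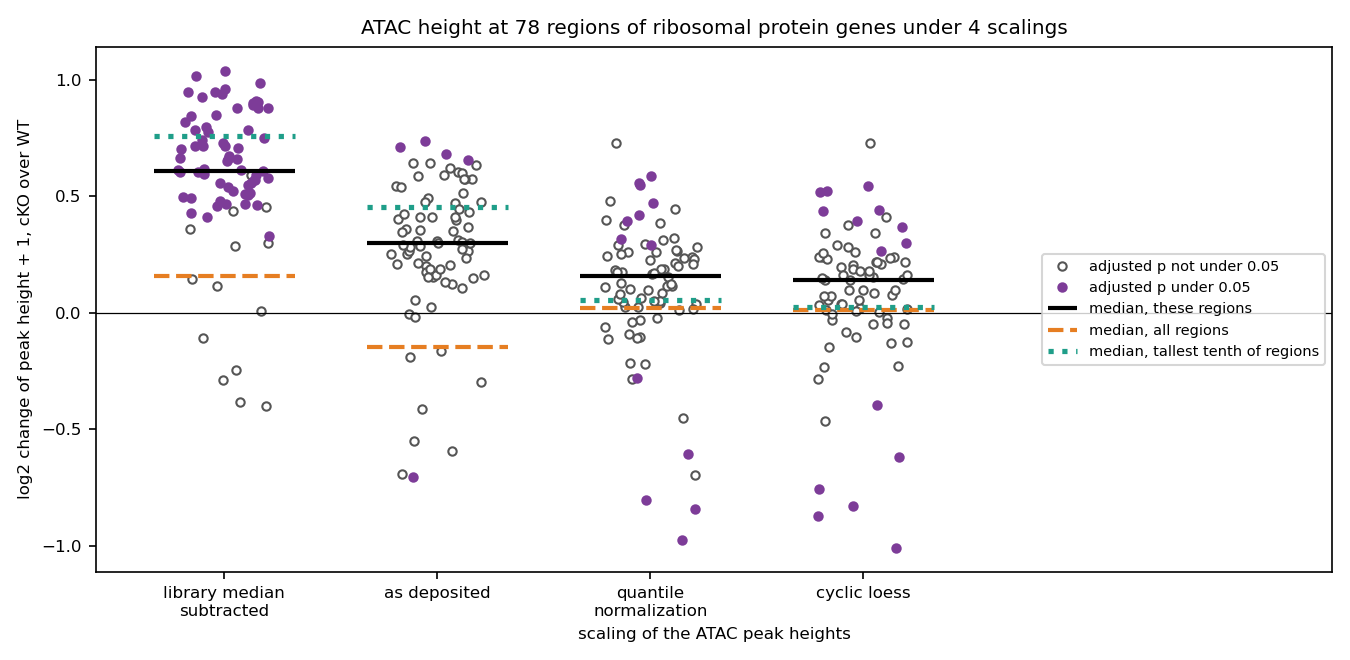
Log2 change of ATAC peak height plus 1, cKO over WT, at the 78 regions of ribosomal protein genes under 4 scalings; filled points have a limma adjusted p under 0.05, and lines mark the medians of these regions, of all 33531 regions and of the tallest 10%. The median of these regions is 0.61, 0.30, 0.16 and 0.14 from left to right, and points below 0 with an adjusted p under 0.05 appear in the last 3 columns.

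The median height of these regions was 130.4, 132.9 and 122.7 in the cKO-labelled libraries and 125.3, 86.9 and 117.3 in WT, so WT replicate 2 stood lowest; 25.22% of its tags lay in peaks, against 34.87% to 38.28% in the other libraries. Without WT replicate 2, 66 regions passed with each library's median subtracted, 64 higher and 2 lower. With each of the other libraries left out 57 to 61 did. The shares of all regions called in these fits are not given here. With all libraries 28.0% of all regions were called higher and 5.48% lower, and 3139 of the 3353 tallest were called higher. The members' regions called higher under all 4 scalings of height were those of Rplp1, Rps20, Rpl27 and Rpl10. The share of all regions called so is not given here. As deposited, Rpl10 passed narrowly (limma adjusted p = 0.0499). With summed tags per kb of peak, medians subtracted, Rplp1 did not pass (0.42, limma adjusted p = 0.0847), and Rps20, Rpl27 and Rpl10 did. At Rplp1 (chr9:61913408-61915582, mm10) heights were 170, 141.3 and 166.9 tags in the cKO-labelled libraries and 109.8, 80.2 and 96.9 in WT, without overlap (log2 change 1.04 with medians subtracted and 0.55 after quantile normalization). At Rpl27 heights were 218.3, 218.3 and 230.8 in the cKO-labelled libraries and 173.2, 97.4 and 146.8 in WT, and at Rpl10 they were 238.3, 240.9 and 261.6 in the cKO-labelled libraries and 168, 123.6 and 183.2 in WT. RNA of Rplp1 and Rps20 was lower without overlap, and that of Rpl27 and Rpl10 overlapped between groups.

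With medians subtracted, the 4 regions with the smallest adjusted p were those of Rps21 (log2 change 0.94), Rpl27a (0.93), Rpl27 (1.02) and Rpl10 (0.96), with adjusted p of 3.14e-05 to 3.18e-05 in limma. In the other direction, Rpl12 (-0.40, limma adjusted p = 0.117), Rps9 (-0.39, 0.136), Rpl3 (-0.29, 0.178) and Rpl37a (-0.25, 0.483) had the smallest. Rpl12, Rps9 and Rpl3 were called lower after quantile normalization (adjusted p = 0.014, 0.0291 and 0.011) and after cyclic loess. With summed tags per kb of peak, medians subtracted, Rpl12 was instead called higher (0.56, limma adjusted p = 0.0264). By that measure Rps9 was at 0.42 (limma adjusted p = 0.0665) and Rpl3 at -0.08 (limma adjusted p = 0.753). These 3 regions are wide, at 7582, 7968 and 7626 bp against a median of 2184 bp for the members, and WT replicates 1 and 3 stood above the other libraries in each. At Rpl41 (chr10:128546150-128549856, mm10) heights were 453.2, 484 and 451.3 in the cKO-labelled libraries and 413.7, 268.5 and 389 in WT, with log2 changes of 0.70 with medians subtracted (adjusted p = 5.62e-05), 0.40 as deposited, -0.11 after quantile normalization and -0.15 after cyclic loess, so its direction turned with the scaling. Of the 52 genes with a region whose RNA was lower without overlap, 48 had a positive ATAC change with medians subtracted and 38 after quantile normalization. Positive changes were as common among all the members' regions, at 73 of 78 and 60 of 78. Over all 33531 regions 20493 and 17605 were positive under these scalings. Across the 79 genes Pearson's r of RNA and ATAC log2 change was 0.12 and Spearman's rho 0.12 with medians subtracted, and 0.04 and 0.16 after quantile normalization, given as a description over genes whose values come from the same libraries.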

How the data were processed

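RNA-seq and ATAC-seq were compared between cKO-labelled and WT Th2 cells, 3 libraries per group, grouped by the labels. Per the submitters' processing notes, which give no settings, the authors name HOMER 4.11, Bowtie2 2.3.5.1, DESeq2, edgeR, STAR, RSEM 1.3.3 and the mm10 build. The deposited RNA values are a signal, counts normalized by the authors; only 0.18% lie within 0.001 of whole, so reads could not be recovered and raw depth is unknown. The authors' deposited fold change is a log2 value and their adjusted p-value is used as deposited. Per the file headers, peak lists are per library, with tag counts (signal) scaled to 10000000 tags, a score in unscaled tags, a clonal fold ratio and a Poisson p-value threshold of 0.001.

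Genes with a mean of at least 10 entered limma 3.58.1 under R 4.3.3 (eBayes, mean-variance trend, pseudocount 1, Benjamini-Hochberg, threshold 0.05). Peaks sharing 1 bp were merged with pandas 2.3.3 in Python 3.11.15. A region's height in a library is the highest tag count among its peaks there, not divided by length. Both fits were tested on simulated data. Named genes are those past the threshold, the 6 lowest and 6 highest changes, the 6 highest means, the stalk, 5S, paralog and fusion genes, Rpsa, Rps6 and up to 4 genes with the smallest p of each other list, plus genes named for their sequences. Genes named outside this rule (Rpl38, Rpl14, Rps10, Rpl15, Rpl28, Rps23, Rps20 in the ATAC account) were chosen after their values were seen. The members and lists were chosen with earlier results of these data known. Some genes that the rule names are not reported here. The reported fits did not pair libraries by replicate number. Alternatives were other pseudocounts, minimums, scalings, weights, left-out libraries and peak rules.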

Additional observations from a re-analysis of the deposited data

How the results depend on the processing

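With each library left out in turn, the ribosomal protein genes past the threshold numbered 0 to 10, all genes past it 1 to 151, against 1 and 37 with all libraries, and the members' median log2 change was -0.392 to -0.281. The counts of members and of all genes past the threshold were 0 and 59 after rescaling without the members, 0 and 6 without the mean-variance trend, 48 and 1783 under sample quality weights, where cKO replicate 1 weighed 7.43, 8 and 122 with the replicate number as a block, and 21 and 526 by the authors' adjusted p; trimmed mean rescaling gave 73 over all genes. Of the 48 members, 1 was higher. The labels do not say whether same-numbered libraries were paired. Correlations of same-numbered libraries around their group means were 0.12, 0.21 and -0.06, and those of the other pairs ran from -0.27 to 0.22. These values do not settle whether there was a pairing. The block moved the ATAC count to 65 and is not the reported fit. Members lower without overlap numbered 7 after quantile normalization and 20 after rescaling without them; this was chosen after seeing the data. The members' median was -0.15 after quantile normalization. The count of regions past the threshold was 5 without subtraction, 13 after quantile normalization and 15 after cyclic loess, with medians of 0.302, 0.16 and 0.14, and the median was 0.496 with peaks of at least 10 tags. Directions turned after quantile normalization for Rpl3 (0.137), Rpl5 (0.0125) and Rps27 (0.0445). With 1 library left out, log2 changes ran from -0.0069 (without WT replicate 1) to 0.276 for Rpl17, from -0.00646 (without WT replicate 3) to 0.267 for Rps19, from -0.241 to 0.0514 (without WT replicate 2) for Rps27 and from -0.445 to 0.279 (without WT replicate 2; 0.156 without cKO replicate 1) for Rps4l. Rpl41 missed the threshold in 6 of its alternatives. The causes were not tested. Over the 29 named members 495 of the alternative values kept their side of the threshold and their direction. Raw depth is unknown, so counting error per gene could not be given.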
